A study of Mus musculus with 6 samples.

Results

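The tetraspanin genes Cd63, Cd9, Cd37, Cd53, Cd81, Cd82 and Cd151 were followed across 3 basophil-lineage populations sorted from the bone marrow of C57BL/6J mice. These 7 genes, chosen by name, are 7 of the 24532 genes in the tables, and each reached a TPM of 1 in all 6 libraries (TPM is a transcript level corrected for transcript length, given as a share of all transcripts of the library and scaled to the same sum in each). The populations had 2 libraries each, which the series calls biological duplicates. MAR1INT and MAR1HI cells both carried CD200R3 but neither CD34 nor ckit, and they differed in MAR1 signal, which was intermediate in MAR1INT and high in MAR1HI. BaP cells, named basophil precursors, carried CD34 and bound MAR1 but lacked ckit. Cells of all 3 populations were negative for the lineage markers. MAR1 is an antibody that recognises FcεRIα, a chain of the IgE receptor of basophils and mast cells. No treatment and no genotype beyond the strain was named for any population. The number of mice behind a library and their age were not given in the sources used here.

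Tetraspanins are small proteins that thread the membrane several times and gather integrins, Ig-family proteins and enzymes around them into membrane microdomains. CD63 sits mainly in the membrane of late endosomes, lysosomes and secretory granules. When a basophil degranulates, the granule membrane fuses with the cell surface, and the CD63 that appears there is the standard flow cytometry readout of basophil activation. That readout is a movement of protein, and the values here are levels of mRNA. CD9, CD81, CD82 and CD151 lie largely at the cell surface of many cell types, whereas CD37 and CD53 are largely restricted to leukocytes.

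Each table implied between 4.75 and 5.28 gigabases of aligned sequence, so depth was similar in all libraries. All 9 basophil markers examined, among them the protease gene Mcpt8 and the receptor gene Ms4a2, were expressed in every library, and they summed to 11726 to 14362 TPM in MAR1INT, 18297 to 21935 TPM in MAR1HI and 17125 to 21995 TPM in BaP. Most of each sum came from the protease genes Mcpt8, Prss34 and Cpa3. By the test described below, 4 of the 9 were called higher in MAR1INT than in BaP (Gata2, Hdc, Il4 and Cd200r3). Another 4 were called lower (Mcpt8, Prss34, Cpa3 and Fcer1a), and the median log2 change was 0.15. Of all genes tested, 11.1% were called higher and 20.4% lower, with a median of -0.16. Cd200r3 and Fcer1a encode proteins used for the sort. Replicate 2 of MAR1HI stood apart: its tested genes had a median of 1.36 times their level in replicate 1, against 0.909 times in MAR1INT and 1.02 times in BaP. Between bulk samples, fewer cells of a type and less RNA per cell cannot be told apart.

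The sequences upstream of 3 of the genes are shown because Cd9 and Cd81, close relatives that share protein partners, changed in opposite directions, while Cd53 is the leukocyte-restricted member with a called difference. They run 5′ to 3′ on the gene's strand, from RefSeq on GRCm38.p6, with every match to a searched motif in capitals: GGGCGG (the GC box bound by Sp1) in Cd9 and Cd81, and TGTGGT (the core of RUNX sites) in Cd53. The stretches lie at chr6:125494792-125495010 on the minus strand (Cd9, 219 bases ending 31 bases before the start), chr3:106790150-106790399 on the minus strand (Cd53, 250 bases) and chr7:143052500-143052738 on the plus strand (Cd81, 239 bases ending 11 bases before the start).
Cd9: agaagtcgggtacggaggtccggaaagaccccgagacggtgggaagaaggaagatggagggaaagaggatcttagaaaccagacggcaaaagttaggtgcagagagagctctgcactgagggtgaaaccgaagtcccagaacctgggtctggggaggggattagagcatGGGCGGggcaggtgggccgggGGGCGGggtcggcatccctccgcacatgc
Cd53: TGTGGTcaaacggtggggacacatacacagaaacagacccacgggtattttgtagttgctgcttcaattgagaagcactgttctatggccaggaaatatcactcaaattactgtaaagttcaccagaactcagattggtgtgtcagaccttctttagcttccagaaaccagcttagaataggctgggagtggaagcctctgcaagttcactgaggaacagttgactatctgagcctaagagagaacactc
Cd81: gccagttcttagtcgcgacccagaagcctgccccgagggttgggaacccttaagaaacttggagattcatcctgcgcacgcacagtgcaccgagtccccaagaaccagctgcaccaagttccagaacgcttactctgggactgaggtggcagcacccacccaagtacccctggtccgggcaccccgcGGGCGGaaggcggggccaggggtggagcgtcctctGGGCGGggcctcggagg

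Over the 250 bases before each start, on both strands, GGGCGG was found for Cd9, Cd37, Cd81, Cd82 and Cd151. It occurred in 32.7% of all 32851 windows of that length in the table. Cd82 had 4 starts, Cd151 had 2 and the others 1 each. A motif counts for a gene if any of its windows holds it, while the shares are per window. The windows of Cd37 and Cd63, and those of all but the outermost start of Cd82 and Cd151, lie inside the gene intervals given below. TGTGGT was found for Cd53 and Cd82 and in 14.0% of windows. The ETS-type motif GAGGAAG was found for Cd37, Cd63 and Cd82 (10.6% of windows), and the E-box CACGTG for Cd37 (6.02% of windows). For Cd82, TGTGGT and GAGGAAG were found only in windows of its inner starts. Neither AGATAA, a motif of GATA factors that 9.99% of windows hold, nor the TATA box TATAAA, held by 12.4%, was found in a window of any of the 7 genes. The GC box was thus present for Cd9 and Cd82, which were higher in MAR1INT than in BaP, and for Cd81, which was lower, while Cd53, also higher, had none in its window. The matches are descriptions of the letters and say nothing of binding.

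**Figure D1:**
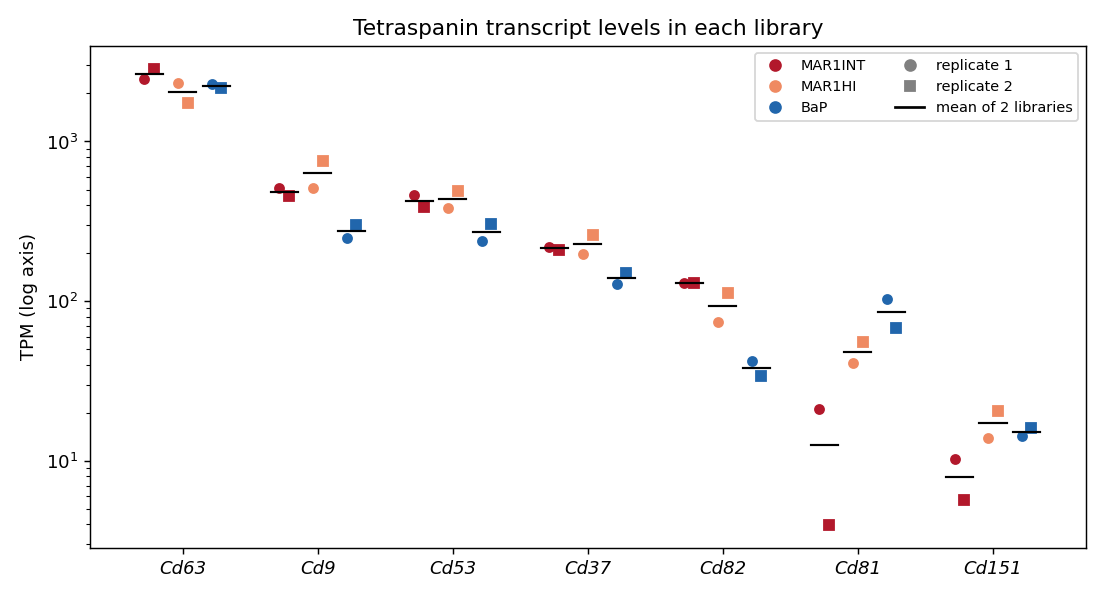
TPM (log axis) of the 7 tetraspanin genes in each library, with MAR1INT in red, MAR1HI in orange and BaP in blue. Circles are replicate 1, squares replicate 2 and bars the mean of 2 libraries. Cd63 lies between 1750.3 and 2852 TPM throughout, Cd82 descends by population from MAR1INT to BaP, and Cd81 ascends.

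Cd63 was the highest of the 7 genes in every library and did not differ detectably between the populations. Cd63 (gene 12512, mm10 chr10:128908919-128912818, plus strand) had 2453 and 2852 TPM in MAR1INT, 2306 and 1750.3 TPM in MAR1HI, and 2276 and 2149 TPM in BaP. These levels placed it between the 65th and the 106th most abundant gene of a library. On TPM, both MAR1INT libraries lay above all 4 others. Replicate 2 of MAR1HI was the lowest of the 6, although most genes were higher in that library than in its duplicate. On the authors' FPKM values, replicate 1 of MAR1INT (1204) lay below replicate 1 of MAR1HI (1317) and both BaP libraries (1381 and 1282). The means were 2653 ± 283 TPM in MAR1INT, 2028 ± 393 TPM in MAR1HI and 2212 ± 89.9 TPM in BaP (SD, n = 2 each). The order of the means was thus MAR1INT, BaP, MAR1HI, and no neighbours in it were called different.

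The test was run on log2(TPM + 1), a scale that understates changes of low genes, with p-values adjusted over the 11337 genes tested and a call at an adjusted p under 0.05. For Cd63, the log2 change of MAR1INT relative to MAR1HI was 0.40 (95% interval -0.04 to 0.83; adjusted p = 0.201), and that relative to BaP was 0.26 (-0.18 to 0.69; adjusted p = 0.340). MAR1HI and BaP differed by -0.14 (-0.57 to 0.30; adjusted p = 0.750), and that sign turned to 0.060 without replicate 2 of MAR1HI and to 0.13 under quantile normalization. The intervals limit any difference between MAR1INT and MAR1HI to between 0.974-fold and 1.78-fold, and between MAR1HI and BaP to between 0.672-fold and 1.23-fold. They do not show that the populations have the same level.

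How far Cd63 stood above the other genes depended on the column used. In all 6 libraries, the ratio of its FPKM to its coverage was 2.21 times the ratio most common among well-covered genes. Cd9, Cd53 and Cd81 had that most common ratio itself, and Cd37, Cd82 and Cd151 had at most 1.31 times it. The reason was not tested. On the coverage column, the mean read depth per base, Cd63 had 2623 and 3236 in MAR1INT, 3038 and 1929 in MAR1HI and 3062 and 2802 in BaP. Cd9 had 1202 and 1143, 1482 and 1840.1, and 743 and 867 in those libraries. Cd63 was thus above Cd9 in each library on either scale, but by a small margin in replicate 2 of MAR1HI on coverage. Since the factor was the same in every library, it does not bear on the comparisons between populations. The order of the libraries still differed from that on TPM. On coverage, replicate 1 of MAR1INT lay below replicate 1 of MAR1HI and both BaP libraries.

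Cd9 and Cd81, surface tetraspanins that bind the Ig-family protein IGSF8, differed in opposite directions in MAR1INT relative to BaP. Cd9 (gene 12527, chr6:125460266-125494755, minus strand) had 508 and 455 TPM in MAR1INT, 509 and 755 TPM in MAR1HI, and 249.7 and 301 TPM in BaP. Its level was higher in all 4 CD34-negative libraries than in both BaP libraries, and the higher MAR1INT library lay only just below the lower MAR1HI library. Means were 482 ± 37.4 TPM in MAR1INT, 632 ± 174 TPM in MAR1HI and 275 ± 36.2 TPM in BaP (SD, n = 2 each). Cd9 rose 1.75-fold in MAR1INT relative to BaP (log2 change 0.81, SE 0.23; adjusted p = 0.0255) and 2.26-fold in MAR1HI relative to BaP (1.17, SE 0.23; adjusted p = 0.0352). MAR1INT and MAR1HI differed by -0.37 (95% interval -0.88 to 0.15; adjusted p = 0.320).

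The MAR1HI call for Cd9 rested on all 4 libraries: the adjusted p was 0.281 without BaP replicate 1, 0.151 without BaP replicate 2, 0.0909 without MAR1HI replicate 1 and 0.298 without MAR1HI replicate 2. The MAR1INT call was lost without BaP replicate 1 (0.178), BaP replicate 2 (0.0714) or MAR1INT replicate 1 (0.0644), with log2 changes of 0.68 to 0.94 in those fits.

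Cd81 (gene 12520, chr7:143052750-143067930, plus strand) encodes a tetraspanin found on most leukocytes and many other cells. It had 21.3 and 3.98 TPM in MAR1INT, 40.99 and 55.4 TPM in MAR1HI, and 103 and 67.7 TPM in BaP. The 3 populations did not overlap, and the MAR1INT libraries differed most from each other, with replicate 2 at 0.187 times replicate 1. Means were 12.6 ± 12.2 TPM in MAR1INT, 48.2 ± 10.2 TPM in MAR1HI and 85.3 ± 24.9 TPM in BaP (SD, n = 2 each). In MAR1INT, Cd81 fell by 3.004 on the log2 scale relative to BaP (SE 0.59; adjusted p = 0.00494) and by 2.21 relative to MAR1HI (SE 0.59; adjusted p = 0.0333). The fold for MAR1INT over BaP was 0.125, with a 95% interval of 0.0496 to 0.313. MAR1HI and BaP differed by -0.80 (-2.13 to 0.53; adjusted p = 0.526).

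The difference of Cd81 from BaP had an adjusted p of 0.0660 without BaP replicate 1, and it was called without any other single library. The difference from MAR1HI was not called without BaP replicate 1 (0.0749), BaP replicate 2 (0.0739), MAR1HI replicate 1 (0.167) or MAR1HI replicate 2 (0.288), and its log2 change was -1.996 to -2.42 in those fits. It was also not called under 6 other settings, median-of-ratios scaling (0.0889) and quantile normalization (0.0813) among them. The size of both differences rested on the MAR1INT duplicates: relative to MAR1HI the log2 change was -3.29 without MAR1INT replicate 1 and -1.13 without MAR1INT replicate 2, and relative to BaP it was -4.085 and -1.92. An antisense gene that overlaps the Cd81 start, R74862, reached at most 0.086 TPM in any library.

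Cd81 lies beside another tetraspanin gene, Tspan32 (chr7:143005046-143019485, plus strand), which encodes a leukocyte tetraspanin. Tspan32 had 13.9 and 21.4 TPM in MAR1INT, 46.8 and 71.4 TPM in MAR1HI, and 53.6 and 60.4 TPM in BaP. It was lower in MAR1INT than in either other population: the log2 change was -1.69 relative to MAR1HI (adjusted p = 0.00852) and -1.66 relative to BaP (adjusted p = 0.00487). MAR1HI and BaP differed by 0.02 (adjusted p = 0.978), so Tspan32 did not show the step between them that the Cd81 means show, although that step was not called for Cd81 either. Without MAR1HI replicate 2 the adjusted p of the first difference was 0.105. On the other side of Cd81, Tssc4 had 1.28 and 6.77 TPM in MAR1INT, 8.71 and 15.5 TPM in MAR1HI, and 12.1 and 9.71 TPM in BaP, with no call, and Trpm5 was listed at 0 in all 6 libraries.

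**Figure D2:**
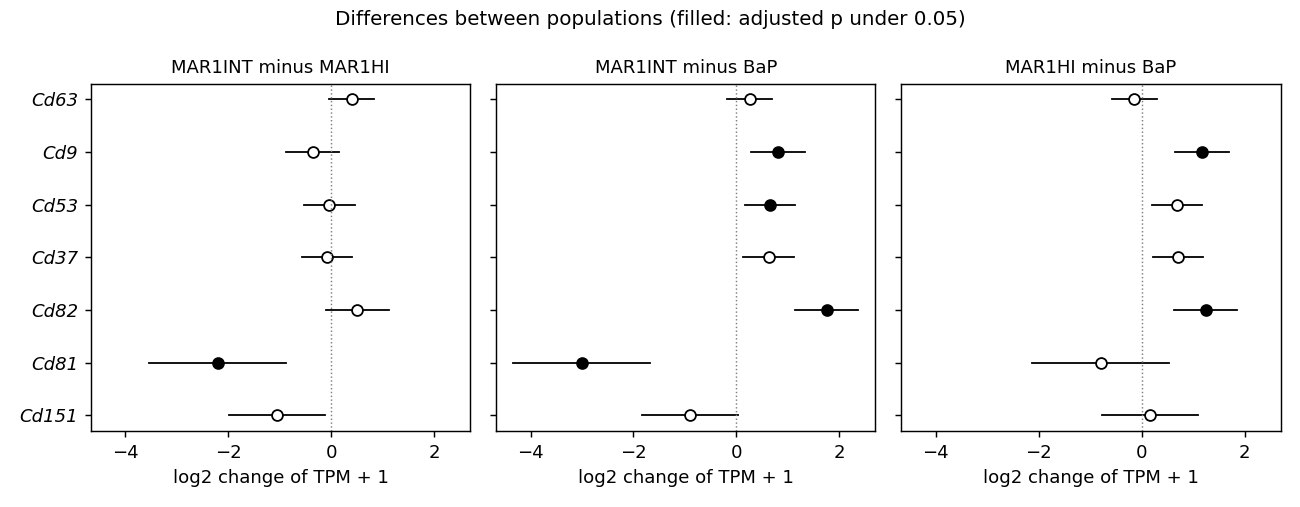
Log2 changes of TPM + 1 for the 7 genes in MAR1INT minus MAR1HI, MAR1INT minus BaP and MAR1HI minus BaP, from limma. Points are estimates, bars 95% intervals and filled points have an adjusted p under 0.05. Cd82 and Cd9 are filled on the right of 0 in both comparisons with BaP, and Cd81 is filled on the left in both comparisons of MAR1INT.

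Cd82 and Cd151 encode tetraspanins that associate with integrins and, in tumour cells, have been studied for their effects on cell migration. Cd82 (gene 12521, chr2:93419102-93462950, minus strand) had 131 and 129 TPM in MAR1INT, 73.8 and 113 TPM in MAR1HI, and 42.3 and 34.0 TPM in BaP. The 3 populations did not overlap, and the MAR1INT duplicates were nearly equal while those of MAR1HI were spread. Means were 130.04 ± 0.955 TPM in MAR1INT, 93.4 ± 27.7 TPM in MAR1HI and 38.2 ± 5.85 TPM in BaP (SD, n = 2 each). Cd82 rose 3.36-fold in MAR1INT relative to BaP (log2 change 1.75, SE 0.27; adjusted p = 0.0015), and this call held under all 16 alternatives, with adjusted p-values up to 0.0242. In MAR1HI it rose 2.37-fold relative to BaP (1.25, SE 0.27; adjusted p = 0.0493). MAR1INT and MAR1HI differed by 0.50 (95% interval -0.11 to 1.12; adjusted p = 0.248).

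The MAR1HI call for Cd82 was lost without BaP replicate 1 (adjusted p = 0.225), BaP replicate 2 (0.307), MAR1HI replicate 1 (0.0909) or MAR1HI replicate 2 (0.310). A microRNA gene on the same strand within Cd82, Mir7001, was listed at up to 20.2 TPM, and how reads were divided between them was not given in the sources used here.

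Cd151 (gene 12476, chr7:141467362-141471481, plus strand), whose protein binds laminin-binding integrins, was the lowest gene of the set except in replicate 2 of MAR1INT. It had 10.3 and 5.69 TPM in MAR1INT, 14.0 and 20.7 TPM in MAR1HI, and 14.4 and 16.0 TPM in BaP. MAR1INT lay below both other populations, and MAR1HI enclosed BaP. The log2 change of MAR1INT was -1.05 relative to MAR1HI (SE 0.41; adjusted p = 0.117) and -0.90 relative to BaP (SE 0.41; adjusted p = 0.128), and neither was called. Without MAR1INT replicate 1 both were, at -1.43 (adjusted p = 0.0178) and -1.27 (adjusted p = 0.0284). On FPKM with all libraries, Cd151 was also called lower in MAR1INT than in BaP by limma (log2 change -1.04, adjusted p = 0.0284). MAR1HI and BaP differed by 0.16 (95% interval -0.77 to 1.09, adjusted p = 0.875), with a sign that 3 other scalings turned.

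Cd37 and Cd53, the leukocyte-restricted pair, had similar patterns. Cd53 (gene 12508, chr3:106758861-106790149, minus strand) had 459 and 386 TPM in MAR1INT, 384 and 488 TPM in MAR1HI, and 238 and 303 TPM in BaP. Cd37 (gene 12493, chr7:45233632-45239115, minus strand) had 217 and 211 TPM in MAR1INT, 198 and 259 TPM in MAR1HI, and 128 and 149.9 TPM in BaP. For both genes the CD34-negative libraries all lay above the BaP libraries, and MAR1INT and MAR1HI overlapped. The log2 change of MAR1INT relative to BaP was 0.65 for Cd53 (SE 0.22; adjusted p = 0.0489), a call, and 0.62 for Cd37 (SE 0.22; adjusted p = 0.0552), which missed the threshold. That of MAR1HI relative to BaP was 0.69 for Cd53 (adjusted p = 0.149) and 0.71 for Cd37 (adjusted p = 0.137). The ratio of Cd53 to Cd37 within a library was 2.11 and 1.83 in MAR1INT, 1.93 and 1.88 in MAR1HI, and 1.85 and 2.02 in BaP, so it varied little.

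The Cd53 call lay at the threshold. With FPKM (adjusted p = 0.0970), a pseudocount of 0.1 (0.0598), no trend (0.157) and others, 12 of 16 alternatives in all, it was lost. It was lost without each of 5 libraries, with an adjusted p of 0.297 without BaP replicate 1, 0.0823 without BaP replicate 2, 0.0578 without MAR1HI replicate 1, 0.0582 without MAR1HI replicate 2 and 0.217 without MAR1INT replicate 1. Cd37 was called without MAR1HI replicate 1 (0.0380) or MAR1HI replicate 2 (0.0383).

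Over the set, 3 of the 7 genes were called higher in MAR1INT than in BaP (Cd9, Cd53 and Cd82) and 1 was called lower (Cd81). Among all 11337 genes tested, 31.5% were called in that comparison, 11.1% higher and 20.4% lower. At an unadjusted p under 0.05, 4 were higher and 1 lower, and 42.9% of all genes passed. In MAR1HI minus BaP, 2 of the 7 were called higher (Cd9 and Cd82) and 0 lower by limma, 4 and 0 at an unadjusted p under 0.05; of all genes, 2.49% were called, 1.83% higher and 0.662% lower, and 17.5% passed unadjusted. In MAR1INT minus MAR1HI, 1 was called lower (Cd81) and 0 higher by limma, 2 and 0 at an unadjusted p under 0.05; of all genes, 16.8% were called, 14.5% lower and 2.29% higher, and 30.8% passed unadjusted. Both comparisons with BaP use the same BaP libraries. An F test over the 3 populations called Cd82 (adjusted p = 0.0037), Cd81 (0.0117) and Cd9 (0.0122), where 26.6% of all genes were called.

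Without regard to the test, 5 of the 7 genes lay higher in both MAR1INT libraries than in both BaP libraries (Cd63, Cd9, Cd37, Cd53 and Cd82), an order held by 29.7% of all genes tested, and 2 lay lower (Cd81 and Cd151), an order held by 39.1%. For MAR1INT over MAR1HI, 2 lay higher (Cd63 and Cd82), against 12.7% of all genes. In that comparison 3 lay lower (Cd9, Cd81 and Cd151), against 42.2%. These orders are on TPM, and on FPKM Cd63 lay higher in neither comparison of MAR1INT. For MAR1HI over BaP, 4 lay higher (Cd9, Cd37, Cd53 and Cd82), against 38.2% of all genes, and 1 lay lower (Cd81), against 15.3%. The median log2 change of the 7 genes was -0.08 in MAR1INT minus MAR1HI, 0.62 in MAR1INT minus BaP and 0.69 in MAR1HI minus BaP. Over all genes tested it was -0.36, -0.16 and 0.24 in the same order. Other scalings shifted the median of all genes: it was -0.11, -0.17 and -0.04 with median-of-ratios factors and 0.11, 0.11 and 0.02 after quantile normalization. The 4 genes called in MAR1INT minus BaP kept their directions in that comparison under both, but under quantile normalization Cd9 (adjusted p = 0.0625) and Cd53 (0.0866) were not called there. In MAR1HI minus BaP, median-of-ratios scaling left neither Cd9 (0.0623) nor Cd82 (0.0535) called. In MAR1INT minus MAR1HI, Cd81 was called under neither, Cd82 was called with median-of-ratios scaling (0.79; adjusted p = 0.0270), and that scaling turned Cd53 to 0.25.

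**Figure D3:**
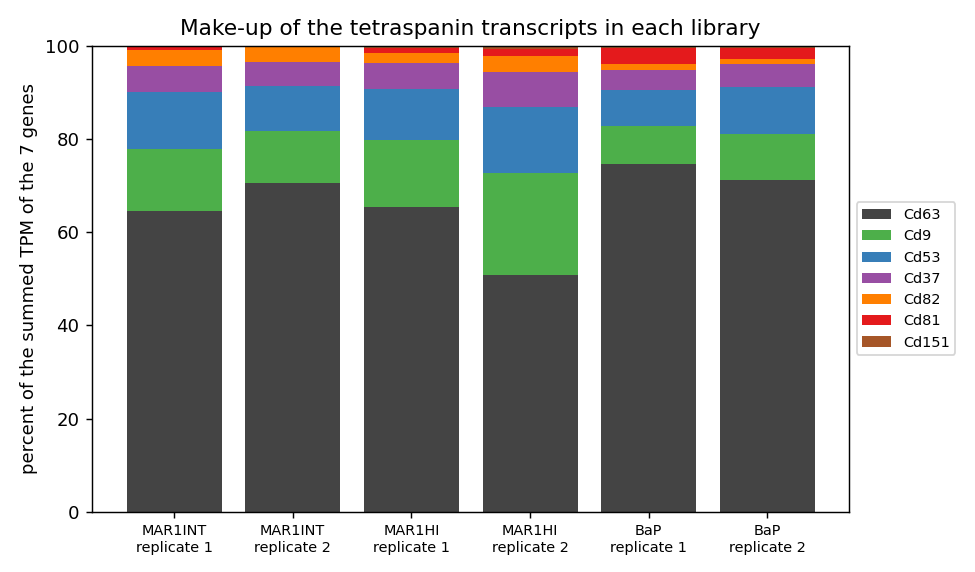
Share of each gene in the summed TPM of the 7 tetraspanins, in percent, for each library. Cd63 makes up 50.9% to 74.6% of the sum, and the Cd81 slice is widest in BaP. The shares are on TPM, and that of Cd63 is lower on coverage in every library.

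The 7 genes summed to 3800.01 and 4043 TPM in MAR1INT, 3525 and 3441 TPM in MAR1HI, and 3051 and 3021 TPM in BaP. Shares and ratios within a library, unlike that sum, do not depend on scaling between libraries. They do depend on the column used, because the FPKM-to-coverage factor of Cd63, 2.21, was the highest of the set. On coverage the share of Cd63 is lower in every library. Cd63 supplied 64.5% and 70.5% of the summed TPM in MAR1INT, 65.4% and 50.9% in MAR1HI, and 74.6% and 71.1% in BaP. Cd9 supplied 13.4% and 11.3% in MAR1INT, 14.4% and 21.9% in MAR1HI, and 8.18% and 9.96% in BaP. The make-up thus differed more within MAR1HI, between its duplicates, than between MAR1INT and BaP for Cd63.

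The balance of Cd82 to Cd81 separated all 3 populations without overlap. Each of these genes did so by itself, in opposite orders, so the ratio could not do otherwise. The ratio of their TPM was 6.15 and 32.5 in MAR1INT, 1.80 and 2.04 in MAR1HI, and 0.411 and 0.503 in BaP. Cd82 was the more abundant transcript in all 4 CD34-negative libraries, and Cd81 in both BaP libraries. The ratio of Cd9 to Cd81 ran in the same order, with 23.9 and 114 in MAR1INT, 12.4 and 13.6 in MAR1HI, and 2.43 and 4.45 in BaP. Replicate 2 of MAR1INT, the library with the least Cd81, gave the extreme of both ratios. The ratio of Cd63 to Cd9 took another order, with 4.83 and 6.26 in MAR1INT, 4.53 and 2.32 in MAR1HI, and 9.11 and 7.14 in BaP. All these ratios are on TPM, and that of Cd63 to Cd9 is lower on coverage. They are given as a description and were not tested.

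**Figure D4:**
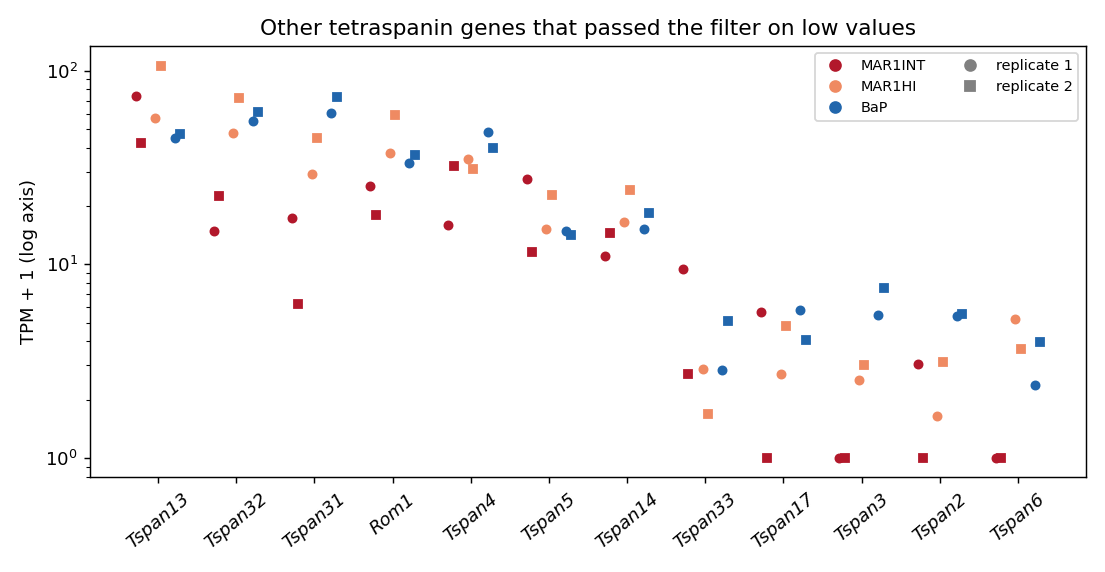
TPM + 1 (log axis) of the 12 other tetraspanin genes that passed the filter on low values, by library, with MAR1INT in red, MAR1HI in orange and BaP in blue. Tspan31 and Tspan32 are lowest in MAR1INT, and Tspan3 and Tspan6 are at 1, a TPM listed at 0, in both MAR1INT libraries.

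Of 24 other tetraspanin genes, all were in the tables and 12 passed the filter on low values. In MAR1INT minus MAR1HI, 5 of these 12 were called lower and 0 higher by limma (5 and 0 at an unadjusted p under 0.05), where 14.5% of all genes were called lower. In MAR1INT minus BaP 4 were called lower and 0 higher (6 and 0), where 20.4% of all genes were called lower. Tspan3 and Tspan6 are among the genes called lower in both comparisons; they were listed at 0 in both MAR1INT libraries and passed the filter through the other populations, so they could only lie lower in MAR1INT. Of the other 10 genes, 3 were called lower than in MAR1HI (Rom1, Tspan31 and Tspan32) and 2 lower than in BaP (Tspan31 and Tspan32). In MAR1HI minus BaP 0 were called in either direction, and 1 was lower at an unadjusted p under 0.05. The median log2 change of the 12 was -0.63, -0.99 and -0.19 in these 3 comparisons, and that of the 10 was -0.57, -0.83 and -0.19, beside -0.36, -0.16 and 0.24 over all genes tested. Tspan31, a broadly expressed member, had 16.4 and 5.22 TPM in MAR1INT, 28.3 and 44.1 TPM in MAR1HI, and 59.2 and 72.0 TPM in BaP. Its log2 change in MAR1INT was -2.67 relative to BaP (adjusted p = 0.00287) and -1.81 relative to MAR1HI (adjusted p = 0.0300), the same ranking of populations as for Cd81.

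Tspan3 was listed at 0 in both MAR1INT libraries, with 1.54 and 2.03 TPM in MAR1HI and 4.47 and 6.57 TPM in BaP. Tspan6 was also listed at 0 in both, with 4.22 and 2.65 TPM in MAR1HI and 1.37 and 2.98 TPM in BaP. Rom1, known from the outer segments of photoreceptors, had 24.5 and 17.1 TPM in MAR1INT, 36.5 and 57.7 TPM in MAR1HI, and 32.4 and 35.4 TPM in BaP. It was called lower than in MAR1HI (log2 change -1.13; adjusted p = 0.0468), but not without BaP replicate 1 (0.111), BaP replicate 2 (0.113), MAR1HI replicate 1 (0.0712), MAR1HI replicate 2 (0.237) or MAR1INT replicate 2 (0.122), nor with the replicate number as a block (0.0644). The Tspan6 difference from MAR1HI was not called without MAR1HI replicate 1 (0.0885) or MAR1HI replicate 2 (0.0797). Tspan13, the most abundant of the 12 by its mean, had 72.9 and 41.4 TPM in MAR1INT, 55.7 and 105 TPM in MAR1HI, and 44.1 and 46.0 TPM in BaP, with no call.

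Partners of tetraspanins differed in both directions. Of 30 listed, 22 passed the filter; 7 were called higher and 5 lower in MAR1INT minus BaP, 3 higher and 2 lower in MAR1INT minus MAR1HI, and 3 higher and 2 lower in MAR1HI minus BaP. Of all genes, 11.1% were called higher and 20.4% lower in the first comparison, 2.29% and 14.5% in the second, and 1.83% and 0.662% in the third. The partners called in MAR1HI minus BaP were 0 without any 1 of the 4 libraries compared, with a pseudocount of 0.1 or with no filter (by limma; 8 higher and 4 lower at an unadjusted p under 0.05 with all libraries). Their median log2 change was 0.15, -0.17 and 0.38 in that order, beside -0.16, -0.36 and 0.24 over all genes tested. Itga6 and Itgb1 encode the chains of the laminin receptor to which CD151 binds. Itga6 had 238 and 193 TPM in MAR1INT, 79.7 and 113 TPM in MAR1HI, and 49.97 and 47.7 TPM in BaP, a log2 change of 2.11 for MAR1INT relative to BaP (adjusted p = 0.000414). Itgb1 had 350.05 and 372 TPM in MAR1INT, 188 and 229 TPM in MAR1HI, and 117 and 93.2 TPM in BaP (1.78; adjusted p = 0.000445). Both integrin genes rose in MAR1INT while their partner Cd151 had its lowest values there.

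Ifitm1, an interferon-inducible membrane protein gene whose product has been found with CD81 and CD9, had 5694 and 6254 TPM in MAR1INT, 2079 and 1424 TPM in MAR1HI, and 1282 and 1190.4 TPM in BaP (2.27; adjusted p = 0.000137). It was more abundant than Cd63 in both MAR1INT libraries and less abundant in the other 4. Kit had 0.0446 and 0.449 TPM in MAR1INT, 2.94 and 4.36 TPM in MAR1HI, and 44.9 and 38.6 TPM in BaP (-5.11; adjusted p = 8.48e-05). ckit protein was part of the sort of all 3 populations, which were negative for it. Clec7a, the beta-glucan receptor gene, and Vcam1, an adhesion molecule gene, fell by 2.09 (adjusted p = 0.00471) and 1.83 (adjusted p = 0.01002) in MAR1INT relative to BaP. Clec7a was at most 7.96 TPM and Vcam1 at most 10.5 TPM in any library, and the Vcam1 call was lost without BaP replicate 1 (0.0849) or BaP replicate 2 (0.0623). Igsf8, the partner of both CD9 and CD81, had 20.6 and 18.9 TPM in MAR1INT, 20.9 and 27.7 TPM in MAR1HI, and 24.5 and 20.9 TPM in BaP, with no call, and was named for this role and not for its values.

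Genes that carry CD63 to granules and release it had 7 of 30 tested members called higher and 0 lower in MAR1INT minus BaP by limma, where 11.1% of all genes were called higher. At an unadjusted p under 0.05 the counts were 8 and 0. The list held 32 genes, of which 31 were in the tables and 30 passed the filter. In MAR1INT minus MAR1HI 2 were called higher and 0 lower (2 and 3 at an unadjusted p under 0.05), and in MAR1HI minus BaP 2 higher and 0 lower (6 and 0). Of all genes, 2.29% were called higher in the first of these and 1.83% in the second, and 30.8% and 17.5% passed unadjusted in either direction. Their median log2 change was 0.21, -0.27 and 0.46 in these comparisons, beside -0.16, -0.36 and 0.24 over all genes. The same 2 genes, Lyst and Sytl2, made up the calls of both comparisons with MAR1HI.

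Lyst, the lysosomal trafficking regulator gene mutated in Chediak-Higashi syndrome with its giant granules, had 658 and 618 TPM in MAR1INT, 259 and 328 TPM in MAR1HI, and 91.0 and 109 TPM in BaP. Its log2 change was 2.66 in MAR1INT relative to BaP (adjusted p = 7.04e-05), 1.12 relative to MAR1HI (adjusted p = 0.00708) and 1.54 in MAR1HI relative to BaP (adjusted p = 0.00822). Sytl2, a synaptotagmin-like protein gene whose product binds Rab27, had 76.7 and 83.8 TPM in MAR1INT, 34.4 and 36.3 TPM in MAR1HI, and 8.30 and 5.04 TPM in BaP. Its changes were 3.44 (adjusted p = 0.000149), 1.16 (adjusted p = 0.0383) and 2.28 (adjusted p = 0.00946) in the same order. Both genes were thus called higher in MAR1INT than in MAR1HI and in MAR1HI than in BaP, whereas Cd63 was called in no comparison; the difference between these genes and Cd63 was not tested. The calls of MAR1HI relative to BaP were lost without any 1 of the 4 libraries compared (adjusted p = 0.0537 to 0.192 for Lyst and 0.0578 to 0.228 for Sytl2). Relative to MAR1HI, Lyst was not called without MAR1HI replicate 1 (0.0596) or MAR1HI replicate 2 (0.0507), and Sytl2 was not called without each of 5 libraries (0.0569 to 0.153) or with the replicate number as a block (0.0538).

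Rab27a, a GTPase gene of granule docking, had 109 and 98.6 TPM in MAR1INT, 76.3 and 103 TPM in MAR1HI, and 57.4 and 52.5 TPM in BaP (0.90 for MAR1INT relative to BaP; adjusted p = 0.0217). Unc13d, the granule priming factor gene, changed by 1.01 (adjusted p = 0.0204), and Stxbp2 and Stx4a, genes of the fusion machinery, by 0.74 (adjusted p = 0.0157) and 0.76 (adjusted p = 0.0274). These 4 calls and that of Bloc1s2 were marginal, since the list had 2 members called higher without BaP replicate 1, 2 without BaP replicate 2 and 3 without MAR1INT replicate 1. Lyst and Sytl2 were called in MAR1INT minus BaP under all 16 alternatives, with adjusted p-values up to 0.00782 and 0.00787.

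Genes of the lysosome membrane, the compartment that holds most CD63, were called in both directions. Of 20 listed, 17 passed the filter, and 3 were called higher and 5 lower in MAR1INT minus BaP, 0 higher and 2 lower in MAR1INT minus MAR1HI, and 0 in either direction in MAR1HI minus BaP (by limma; 1 and 4, and 1 and 2, at an unadjusted p under 0.05). Of all genes, 11.1% were called higher and 20.4% lower in the first comparison, and 2.29% and 14.5% in the second. The medians were -0.35, -0.41 and 0.19, beside -0.16, -0.36 and 0.24 over all genes. Lamp1, the other granule membrane protein gene used as a degranulation marker, had 92.4 and 91.2 TPM in MAR1INT, 140.3 and 211 TPM in MAR1HI, and 177 and 187 TPM in BaP. MAR1INT was below MAR1HI (log2 change -0.90; adjusted p = 0.0339) and below BaP (-0.98; adjusted p = 0.0142), whereas Cd63 was not called in either comparison; the difference between the 2 genes was not tested. Lamp1 was not called relative to MAR1HI without BaP replicate 1 (0.0759), BaP replicate 2 (0.0770), MAR1HI replicate 2 (0.134) or MAR1INT replicate 2 (0.0516), nor relative to BaP without BaP replicate 1 (0.0822) or BaP replicate 2 (0.1002). Cln3, a lysosomal membrane protein gene, had 63.4 and 58.1 TPM in MAR1INT, 34.2 and 53.2 TPM in MAR1HI, and 12.9 and 19.9 TPM in BaP (1.85 for MAR1INT relative to BaP; adjusted p = 0.00317).

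Npc1, the cholesterol exporter gene, was also higher in MAR1INT than in BaP (1.18; adjusted p = 0.0357). Cd68, Slc11a1, Sort1 and Atp6ap2 were lower, by log2 changes of -2.23, -2.26, -1.62 and -1.10 (adjusted p = 0.00699, 0.0231, 0.0106 and 0.0118). Cd68 and Slc11a1 are best known from macrophages, and they had at most 8.31 and 2.47 TPM in MAR1INT against at most 27.8 and 8.91 TPM in BaP. Without BaP replicate 1 the list had 1 member called higher and 0 lower, and without BaP replicate 2 it had 2 and 0. The ESCRT genes, which bud vesicles into the late endosomes where CD63 resides, had 22 of 22 members tested, and 2 were called higher in MAR1INT minus BaP, where 11.1% of all genes were: Hgs (0.96; adjusted p = 0.0232) and Chmp4b (0.86; adjusted p = 0.0159). Neither was called without BaP replicate 1 (0.152 for Hgs and 0.0541 for Chmp4b), BaP replicate 2 (0.112 and 0.131) or MAR1INT replicate 2 (0.0831 and 0.0817). In MAR1INT minus MAR1HI and MAR1HI minus BaP limma called 0 ESCRT genes, with 1 and 5 at an unadjusted p under 0.05, and the median was -0.04 in the first and 0.52 in the second of these and 0.46 in MAR1INT minus BaP, beside -0.36, 0.24 and -0.16 over all genes.

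Genes of other surface molecules used to identify basophils or follow their activation were called in both directions in MAR1INT minus BaP. Of 15 listed, 13 passed the filter, 2 of which, Fcer1a and Cd200r3, encode proteins that were used for the sort, so their differences are not findings. Of the other 11, 4 were called higher (Anpep, Cd200r1, Cd86 and Itgam) and 2 lower (Fas and Lamp1) in MAR1INT minus BaP, where 11.1% of all genes were called higher and 20.4% lower. In MAR1INT minus MAR1HI 0 were called higher and 2 lower (Fas and Lamp1), against 2.29% and 14.5% of all genes. Fas was listed at 0 in both MAR1INT libraries and passed the filter through the other populations. It could thus only lie lower in MAR1INT, which leaves Lamp1 as the other lower call in both comparisons. In MAR1HI minus BaP 2 were called higher (Anpep and Cd200r1) and 0 lower, against 1.83% and 0.662% of all genes. With the genes of the sort, 3 of the 13 were called higher in that comparison, and 0 without any 1 of the 4 libraries compared, with a pseudocount of 0.1, no filter, FPKM, median-of-ratios scaling or no trend (9 higher and 0 lower at an unadjusted p under 0.05 with all libraries). The medians of the 11, Fas included, were 0.54, 0.04 and 1.11, beside -0.16, -0.36 and 0.24 over all genes. Anpep, the aminopeptidase gene of CD13, had 32.2 and 17.7 TPM in MAR1INT, 8.04 and 12.9 TPM in MAR1HI, and 1.97 and 0.958 TPM in BaP (3.37 for MAR1INT relative to BaP; adjusted p = 0.000919). Itgam, the CD11b integrin gene, had 339.6 and 322 TPM in MAR1INT, 182 and 239 TPM in MAR1HI, and 72.9 and 119.99 TPM in BaP (1.81; adjusted p = 0.00119). Enpp3, the gene of the activation marker CD203c, was listed at 0 in 5 libraries and at 0.0409 TPM in replicate 1 of MAR1HI.

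Fas, the death receptor gene, was listed at 0 in both MAR1INT libraries, with 11.3 and 11.1 TPM in MAR1HI and 1.65 and 6.41 TPM in BaP; it passed the filter through these populations. Cd200r1, an inhibitory receptor gene, was higher in MAR1INT than in BaP (1.41; adjusted p = 0.00119) and in MAR1HI than in BaP (1.11; adjusted p = 0.0306). Fcer1a, the receptor chain bound by MAR1, had 534 and 422 TPM in MAR1INT, 1211 and 1446 TPM in MAR1HI, and 776 and 892 TPM in BaP, lower in MAR1INT than in MAR1HI as in the sort. Cd200r3 had 2696 and 2342 TPM in MAR1INT, 1602 and 1576 TPM in MAR1HI, and 821 and 845 TPM in BaP.

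The genes whose pattern over the 6 libraries was most like that of each tetraspanin were taken among 7260 genes with a mean of 10 TPM or more, by Pearson's r of log2(TPM + 1). For Cd63 they were Mir6516 (r = 0.997), Snora70 (0.982) and Snora21 (0.975), all genes of short RNAs. Snora70 had 2896 and 5297 TPM in MAR1INT, 2296 and 1121 TPM in MAR1HI, and 2492 and 2391 TPM in BaP. Like Cd63, it was lowest in replicate 2 of MAR1HI, and the part of that library in the Cd63 values was not tested. For Cd9 they were Slc38a10 (0.998), Rabgap1l (0.997) and Ikzf3 (0.995), and for Cd81 they were Nans, Mcee (0.999 each) and Mrps27 (0.995). For Cd82, Nck2 (0.998), D230025D16Rik (0.997) and Parp4 came closest; Parp4 had 138 and 137 TPM in MAR1INT, 90.3 and 121 TPM in MAR1HI, and 61.7 and 52.8 TPM in BaP. Chkb, Fam114a2 (0.997 each) and Rhof (0.996) were nearest to Cd53, Adgrg3 (0.997), Nfkbia (0.996) and Htr1b (0.995) to Cd37, and Etaa1 (0.999), Reep4 (0.998) and Pelo (0.997) to Cd151. The 6 libraries come from 3 populations, so these values are a description only.

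Summed markers of several other cell types were higher in BaP, though not every member was. The 8 eosinophil genes summed to 81.5 to 228 TPM in MAR1INT, 81.2 to 119 TPM in MAR1HI and 1146 to 2160.4 TPM in BaP. Of these, Epx, Prg3, Ear6 and Il5ra were at 0 in both MAR1INT libraries. Siglecf, from the same list, ran the other way, with 79.5 and 109.8 TPM in MAR1INT. It had 29.5 and 44.5 TPM in MAR1HI, and 21.9 and 20.9 TPM in BaP. The 8 genes of dendritic cells and MHC class II summed to 10.8 to 23.3 TPM in MAR1INT, 38.4 to 54.9 TPM in MAR1HI and 340.1 to 964 TPM in BaP. Monocyte and macrophage genes, 9 in number, summed to 114 to 129.7 TPM in MAR1INT, 91.7 to 98.1 TPM in MAR1HI and 280.3 to 342 TPM in BaP. Each of these sums was higher in both BaP libraries than in the other 4. Not every monocyte and macrophage gene followed the sum. Adgre1 had 25.5 and 47.6 TPM in MAR1INT, 6.51 and 7.38 TPM in MAR1HI, and 41.6 and 24.8 TPM in BaP. Ly6c2 had 97.1 and 52.4, 69.6 and 67.8, and 73.1 and 234 TPM in the same order. By limma, 7 of the 9 were called lower and 0 higher in MAR1INT minus BaP, against 20.4% and 11.1% of all genes. In MAR1INT minus MAR1HI, Adgre1 was called higher and 0 lower, against 2.29% and 14.5%. The 10 neutrophil genes summed to 3104 to 3678 TPM in MAR1INT, 2616 to 3815 TPM in MAR1HI and 4494 to 9158 TPM in BaP. Mpo had 113 and 65.1 TPM in MAR1INT, 615 and 495 TPM in MAR1HI, and 1674 and 2138 TPM in BaP. S100a8, of the same list, had 1867 and 1665, 1505 and 894, and 1298 and 2798 TPM in the same order. By limma, 4 of the 10 were called lower and 0 higher in MAR1INT minus BaP, against 20.4% and 11.1% of all genes. In MAR1HI minus BaP 2 were called lower and 0 higher, against 0.662% and 1.83%. The part of other cell types in the level of any tetraspanin was not tested.

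Markers of cells known to be rich in CD9 or CD37 were also measured. Platelets and megakaryocytes express much CD9, and the 8 genes of their list summed to 431 to 509 TPM in MAR1INT, 445 to 578 TPM in MAR1HI and 271 to 288 TPM in BaP. Most of that was Itga2b, while Pf4, the platelet factor gene, had at most 13.3 TPM and was at 0 in both MAR1INT libraries. The 7 B and plasma cell genes, for cells that express CD37 and CD81, summed to 14.8 to 25.9 TPM in MAR1INT, 37.6 to 40.9998 TPM in MAR1HI and 22.7 to 24.6 TPM in BaP. The 7 T and NK cell genes summed to at most 6.80 TPM in any library, and the 6 mast cell genes to 0.0446 to 0.449 TPM in MAR1INT, 4.08 to 4.89 TPM in MAR1HI and 40.7 to 45.1 TPM in BaP. Kit was the only one of them above 0 in MAR1INT. In replicate 1 of MAR1HI it had 2.94 TPM beside 1.14 TPM of Tpsb2, a tryptase gene. In BaP Kit had 44.9 and 38.6 TPM, while Tpsb2, the highest of the others there, had 0 and 1.39 TPM. The 6 erythroid genes varied within populations, from 1239 to 2743 TPM in MAR1INT, 50.8 to 592 TPM in MAR1HI and 61.0 to 2283 TPM in BaP.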

How the data were processed

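RNA sequencing of 6 libraries (2 each of MAR1INT, MAR1HI and BaP, grouped by their labels) was analysed from the deposited gene tables. Per the labels' protocols, TRIZol LS gave the RNA and the SureSelectXT RNA direct kit, which enriches by capture, the libraries, so a level also depends on the capture of that gene. Per the submitters' processing notes, Trimmomatic, HISAT2, StringTie and mm10 were used; versions, annotation and strand setting were not given in the sources used here. Per the file headers, the authors' columns are coverage (a signal, mean read depth per base), FPKM and TPM. The TPM deposited by the authors were used, with FPKM and coverage as alternatives. Entries of a gene ID listed in several parts were summed, and 24462 of 24532 IDs matched a GRCm38.p6 gene table, while 70 did not. Read counts were not used here, so there are no counting intervals, and precision rests on the spread between duplicates.

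The test was limma's moderated test (version 3.58.1, R 4.3.3) on log2(TPM + 1), with a trend of the variance on the level. The fit held 1 term for each population and took in all 6 libraries, so that 3 degrees of freedom remained, beside a median of 6.39 from the prior. It covered the 11337 genes that reached a TPM of 1 in 2 or more of the 6 libraries, was two-sided, and was adjusted by Benjamini-Hochberg. Tables were made in Python 3.11.15 (pandas 2.3.3 and numpy 2.4.6) and figures with matplotlib 3.10.9. P-values measure the spread between duplicates, pooled over the 3 populations and moderated toward a trend over all genes tested. They thus do not rest on the 2 populations compared alone. Whether the duplicates came from separate mice was not stated beyond their name.

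The 7 genes and the other gene lists were chosen with earlier results of these data known. Named from the other lists were up to 6 called genes a list, by the largest absolute change in any comparison. Beyond that rule, Igsf8, Lamp1 and Enpp3 were named for their known role, and Tspan13 and Bloc1s2 after their values were seen. Coverage as an alternative was added after seeing the data, as were the repeat of all alternatives for the named genes and the lists without genes of the sort or genes at 0 in a population. Same-numbered libraries were not paired, since the labels share a number only.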

Additional observations from a re-analysis of the deposited data

How the results depend on the processing

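Of 336 values of the 7 genes (21 log2 changes under 16 alternatives), 268 kept their direction and side of the threshold, 49 lost and 8 gained a call, and 11 changed sign, none of them called. The sign changes were Cd63 in MAR1HI minus BaP (0.13 with quantile normalization, 0.060 without MAR1HI replicate 2), Cd37 in MAR1INT minus MAR1HI (0.21 with median-of-ratios scaling, 0.11 without MAR1HI replicate 2), Cd53 in MAR1INT minus MAR1HI (0.25 with median-of-ratios scaling, 0.13 without MAR1HI replicate 2, 0.087 without MAR1INT replicate 2) and Cd151 in MAR1HI minus BaP (-0.056 with FPKM, -0.12 with quantile normalization, -0.13 with median-of-ratios scaling, -0.11 without MAR1HI replicate 2). The cause was not tested. Leaving out 1 library at a time, these 4 changes ranged from -0.34 to 0.060, -0.27 to 0.11, -0.21 to 0.13 and -0.11 to 0.42. Of 31 genes named from the other lists, 14 were called under every alternative that tested them.

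Genes called in MAR1INT minus MAR1HI numbered 562 with no filter on low values, against 1900. In MAR1INT minus BaP they numbered 2358 with no filter, against 3574. In MAR1HI minus BaP, against 282, they numbered 4 with no filter, 89 with a pseudocount of 0.1, 104 with no trend and 1062 with only the 2 groups compared. The F test called 1449 with no filter, against 3012.

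Tetraspanins called in MAR1INT minus MAR1HI were 0, against 1, with a pseudocount of 0.1, no filter, quantile normalization, only the 2 groups or no trend; median-of-ratios scaling also gave 1, but Cd82 in place of Cd81. In MAR1INT minus BaP, against 4, they were 1 with no filter, 2 with quantile normalization and 2 with no trend. FPKM also gave 4, but with Cd151 in place of Cd53, and only the 2 groups gave 4 with Cd37 in place of Cd53. Median-of-ratios scaling gave 5, with Cd37 added. In MAR1HI minus BaP, against 2, they were 0 with a pseudocount of 0.1, no filter, median-of-ratios scaling or no trend, and 1 with quantile normalization or coverage. The F test called 1 with no filter, against 3. Of the other tetraspanin genes in MAR1INT minus MAR1HI, against 5, 3 were called with a pseudocount of 0.1, a mean TPM of 5 or more, only the 2 groups or no trend, 2 with quantile normalization and 0 with no filter. In MAR1INT minus BaP, against 4, 2 were called with a mean TPM of 5 or more.

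Leaving out 1 library at a time gave 239 to 2611 genes in MAR1INT minus MAR1HI, 1581 to 4024 in MAR1INT minus BaP, 3 to 1092 in MAR1HI minus BaP and 1493 to 4074 in the F test. Tetraspanins called ranged from 0 to 2, 1 to 4, 0 to 2 and 0 to 4 in that order, and other tetraspanin genes from 0 to 6 in MAR1INT minus MAR1HI and 2 to 6 in MAR1INT minus BaP. Where a library is left out, the lone duplicate is assumed to vary like the other populations.

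With the replicate number as a block, 1 tetraspanin was called in MAR1INT minus MAR1HI, 3 in MAR1INT minus BaP, 1 in MAR1HI minus BaP and 3 by the F test; Cd53 in MAR1INT minus BaP (adjusted p = 0.0723) and Cd82 in MAR1HI minus BaP (adjusted p = 0.0739) were not called, and no other call of the 7 genes changed. Of the 31 genes named from other lists in their named comparison, Rom1 in MAR1INT minus MAR1HI (adjusted p = 0.0644) was the only one not called with the block. The deviations of same-numbered libraries correlated at 0.154 (MAR1HI and BaP), -0.0922 (MAR1INT and BaP) and -0.0593 (MAR1INT and MAR1HI), and the labels share only a number. Duplicates limit all of these results.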
